A study of Mus musculus with 4 samples.

Results

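The comparison described here set the CD45-positive against the CD45-negative sorted cells of MB49 tumours, asking which genes separated leukocytes from carcinoma cells and stroma in both a male and a female host. MB49 is a mouse bladder carcinoma line. The series holds 4 single-cell RNA libraries, and all 4 were used: 1 CD45-positive and 1 CD45-negative library from tumours of male mice, and 1 of each from tumours of female mice. Live cells had been sorted with a CD45 antibody after enzymatic digestion and red cell lysis, and were captured on the BD Rhapsody microwell system, in which each captured transcript carries a unique molecular identifier (UMI). No treatment was named in the labels. Strain, age, the implantation site and the number of tumours behind each library were not given in the sources used here, so the 2 libraries of a gate differed in host sex and may each be 1 tumour or a pool. Cells were kept by a rule on depth, gene number and mitochondrial share, which left 19375 of 22115 barcodes: 9974 CD45-positive and 9401 CD45-negative cells. UMIs were then summed within each library, so every test below rests on 2 libraries against 2.

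CD45 is the receptor tyrosine phosphatase encoded by Ptprc, carried on the surface of nucleated blood cells and absent from epithelial, fibroblast and endothelial cells. Keratin 18, encoded by Krt18, pairs with keratin 8 in the filament network of simple epithelia and is retained in most carcinomas. A CD45 sort of a digested tumour therefore divides infiltrating macrophages, lymphocytes and granulocytes from malignant cells, fibroblasts and vessels.

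The sort was reflected in the RNA. Kept cells carried a median of 5980 (male host) and 6047 (female host) UMIs in the CD45-positive libraries and of 9919 and 10598 in the CD45-negative ones, and library sums ran from 37384808 to 61591161 UMIs. Ptprc stood at 742 and 648 CPM (UMIs of the gene per 1000000 UMIs of the library) in the CD45-positive libraries of the male and female host and at 1.79 and 1.35 in the CD45-negative ones. Its log2 fold change, CD45-positive over CD45-negative, was 9.08 ± 0.26 (SE, 2 libraries a gate, adjusted p = 1.29e-04). Krt18 showed the mirror image, with 57.5 and 51.7 CPM in the CD45-positive and 1609 and 2009 CPM in the CD45-negative libraries, a log2 fold change of -4.75 ± 0.21 (adjusted p = 1.94e-04). At least 1 Krt18 UMI was found in 93.8% and 95.4% of CD45-negative cells, and at least 1 Ptprc UMI in 85.1% and 84.9% of CD45-positive cells. In the opposite gate these shares were 4.67% and 6.35% for Krt18 and 0.364% and 0.359% for Ptprc. For thinned shares, each kept cell of 1000 or more UMIs was thinned to 1000. Shallower cells were left out, 541 and 483 in the CD45-positive and 391 and 247 in the CD45-negative libraries. Ptprc was then seen in 53.7% and 47.7% of CD45-positive against 0.157% and 0.082% of CD45-negative cells. Krt18 was seen in 1.86% and 1.61% against 70.4% and 75.5%. In sums of this kind, fewer cells of a type and less RNA per cell cannot be told apart.

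**Figure D1:**
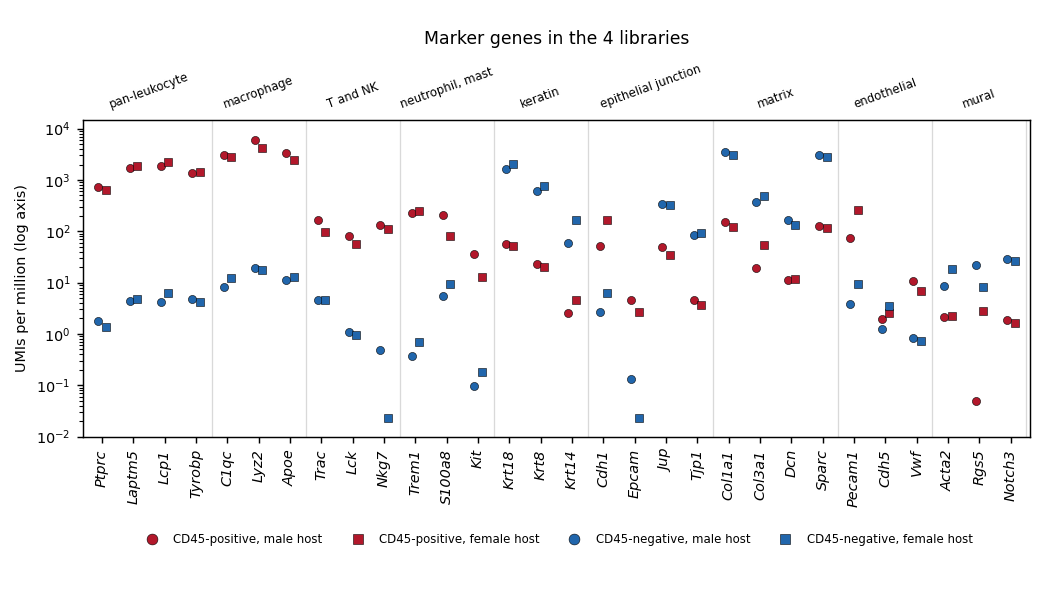
CPM (log axis) of marker genes in the 4 libraries, grouped by the cell type or structure they mark; red, CD45-positive; blue, CD45-negative; circles, male host; squares, female host; each point is 1 library. Leukocyte markers lay far apart between gates in both hosts, keratins and matrix genes were reversed, Cdh1, Epcam and Pecam1 were higher in the CD45-positive gate, and Cdh5 overlapped.

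Stretches of the genome at the start sites of 7 genes separated in both hosts, on either side, are shown. The genes were picked by hand and not by rank, so motif matches among them say nothing about the 2 sides. The stretches are RefSeq promoter windows of build GRCm38.p6, from 250 bases before to 50 bases after the start site. They are written 5′ to 3′ on the strand of the gene. Where the reference table holds several windows for a gene, its first was taken. Ptprc, the gate's own gene, lies at chr1:138175256-138175555 (minus strand). C1qc, a chain of the complement starter C1q, lies at chr4:136892865-136893164 (minus strand), and Ctss, the lysosomal protease cathepsin S, at chr3:95526536-95526835 (plus strand). Krt18 lies at chr15:102027966-102028265 (plus strand) and Cald1, encoding the actin-binding caldesmon, at chr6:34598254-34598553 (plus strand). The last 2 encode sister actin-bundling plastins: Lcp1 (L-plastin) at chr14:75130873-75131172 (plus strand) and Pls3 (T-plastin) at chrX:75875133-75875432 (minus strand). Capitals mark matches, on either strand, to 3 motifs that do not overlap each other here: GAGGAAGT, bound by the myeloid factor PU.1; TGANTCA, bound by AP-1; and GGAATG, bound by the TEAD partners of YAP.
Ptprc: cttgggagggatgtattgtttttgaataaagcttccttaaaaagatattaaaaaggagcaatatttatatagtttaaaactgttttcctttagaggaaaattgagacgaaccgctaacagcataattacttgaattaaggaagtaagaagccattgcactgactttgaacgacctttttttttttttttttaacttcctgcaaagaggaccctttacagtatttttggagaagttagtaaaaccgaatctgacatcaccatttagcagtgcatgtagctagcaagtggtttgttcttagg
C1qc: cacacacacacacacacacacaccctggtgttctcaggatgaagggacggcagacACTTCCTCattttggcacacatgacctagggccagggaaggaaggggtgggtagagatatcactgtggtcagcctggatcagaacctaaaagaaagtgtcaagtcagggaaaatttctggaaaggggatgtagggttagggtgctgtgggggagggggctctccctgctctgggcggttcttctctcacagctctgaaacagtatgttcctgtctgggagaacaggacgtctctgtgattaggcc
Ctss: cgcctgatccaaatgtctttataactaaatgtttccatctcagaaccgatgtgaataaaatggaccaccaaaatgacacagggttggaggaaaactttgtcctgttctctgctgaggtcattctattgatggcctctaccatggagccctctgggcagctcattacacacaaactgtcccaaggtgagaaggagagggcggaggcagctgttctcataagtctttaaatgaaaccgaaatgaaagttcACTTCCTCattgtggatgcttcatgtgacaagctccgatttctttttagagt
Krt18: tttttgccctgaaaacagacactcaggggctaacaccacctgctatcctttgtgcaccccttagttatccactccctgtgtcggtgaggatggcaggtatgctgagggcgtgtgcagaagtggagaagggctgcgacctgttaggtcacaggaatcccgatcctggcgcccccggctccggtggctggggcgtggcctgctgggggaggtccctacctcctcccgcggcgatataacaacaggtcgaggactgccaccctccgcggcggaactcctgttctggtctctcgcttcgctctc
Cald1: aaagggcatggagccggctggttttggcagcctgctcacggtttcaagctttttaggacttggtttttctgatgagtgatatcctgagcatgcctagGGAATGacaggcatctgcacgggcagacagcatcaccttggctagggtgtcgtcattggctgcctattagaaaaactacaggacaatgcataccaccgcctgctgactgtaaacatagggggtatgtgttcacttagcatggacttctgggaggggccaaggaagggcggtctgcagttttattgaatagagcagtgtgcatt
Lcp1: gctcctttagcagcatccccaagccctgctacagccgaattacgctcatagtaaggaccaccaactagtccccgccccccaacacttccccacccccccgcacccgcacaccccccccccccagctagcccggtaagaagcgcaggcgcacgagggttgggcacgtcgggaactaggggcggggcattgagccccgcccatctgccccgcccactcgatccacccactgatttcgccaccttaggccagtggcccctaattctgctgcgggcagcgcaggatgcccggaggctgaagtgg
Pls3: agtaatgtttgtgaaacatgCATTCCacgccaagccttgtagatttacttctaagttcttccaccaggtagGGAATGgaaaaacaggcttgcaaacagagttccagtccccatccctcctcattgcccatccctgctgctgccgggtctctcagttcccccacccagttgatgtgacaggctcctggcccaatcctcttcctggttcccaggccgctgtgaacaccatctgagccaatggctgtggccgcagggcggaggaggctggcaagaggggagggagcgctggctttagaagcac

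The windows of C1qc and Ctss each hold 1 match to the PU.1 motif, starting 195 and 2 bases before the start site. The TEAD motif occurs 1 time in the window of Cald1 and 2 times in that of Pls3, and the windows of Ptprc, Krt18 and Lcp1 hold none of the 3. Among all 32851 windows of this length in the table, 3.20% hold the PU.1 motif, 7.81% the AP-1 motif and 14.7% the TEAD motif. Of the genes separated in both hosts with at least 100 CPM, 210 of 283 on the CD45-positive side and 175 of 243 on the CD45-negative side had a window, fewer than 80%, so a comparison of motif shares between the sides is void and is not given.

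The gates differed over a large part of the transcriptome. Among 14256 genes tested with edgeR's quasi-likelihood test, 4139 (29.0%) were higher in CD45-positive and 4023 (28.2%) higher in CD45-negative cells at an adjusted p under 0.05, 57.3% in all. Scaled by library totals instead of TMM factors, the median gene shifted by -0.30 on the log2 scale, and the split became 3208 against 5424. A stricter class was therefore used for most of what follows: a gene was called separated in both hosts when it passed the test and its lower library in one gate stood at least 4 times above its higher library in the other. That class held 1509 genes (10.6%) on the CD45-positive and 1649 (11.6%) on the CD45-negative side. The counts given below for gene lists are to be read against these shares of all genes.

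Both hosts gave nearly the same division. For this comparison, Y-linked genes, Xist, Tsix and mitochondrially encoded, ribosomal protein, haemoglobin, immunoglobulin, T cell receptor and unnamed genes were left out. Across the 2672 remaining genes with at least 100 CPM in some library, Pearson's r of the 2 hosts' log2 gate ratios was 0.98. It is a description across genes, which are not independent replicates. The ratios of a gene differed between hosts by a median of 0.239. In both hosts, 541 of these genes (20.2%) were at least 2-fold higher in the CD45-positive gate, 607 (22.7%) at least 2-fold higher in the CD45-negative gate, and 742 (27.8%) within 1.5-fold. Only 2 (0.0749%) lay on opposite sides by 1.5-fold or more in each host: Cadm1, a cell adhesion molecule, and Slc20a1, a phosphate transporter.

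**Figure D2:**
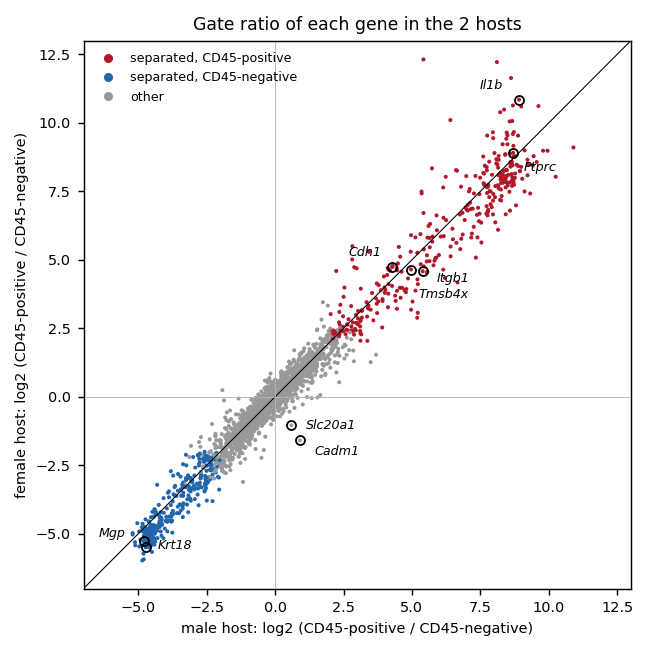
Log2 ratio of CPM, CD45-positive over CD45-negative, in the male host (x axis) and the female host (y axis) for genes with at least 100 CPM in a library and a UMI in all 4; red and blue, genes separated in both hosts; grey, other genes; the line marks equal ratios. The cloud follows the line (r = 0.98 over 2672 genes), reaches past 8 on the CD45-positive side and less far on the CD45-negative side.

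The 2 sides were not equally deep. Among separated genes with at least 100 CPM in both libraries of a gate, the 15 highest of the CD45-positive gate reached log2 fold changes of 9.16 to 10.33, whereas the most extreme gene of the CD45-negative gate, the small heat shock gene Hspb8, stood at -4.94. For 283 separated genes of at least 100 CPM on the CD45-positive side, the level in the CD45-negative library of the same host was a median of 0.927% (male) and 1.01% (female) of that in the CD45-positive library. For the 243 on the CD45-negative side, the remainder in the CD45-positive library was 7.28% and 5.82%, and no gene fell under 1%.

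Part of that remainder sat in a few cells. In the CD45-positive libraries, 61 cells (1.13%) of the male and 39 (0.849%) of the female host held 10 or more Krt18 UMIs, with a median of 18925 and 19264 UMIs per cell. These cells carried 84.3% and 82.9% of all Krt18 UMIs of their libraries, 80.6% and 80.3% of those of Krt8, 74.7% and 72.6% of those of the transcription factor gene Sox9, and 62.8% and 52.2% of those of Col1a1. Their Krt18 level, 1578 and 1953 CPM, lay near that of the CD45-negative libraries, and 23 of the 61 and 23 of the 39 also had a Ptprc UMI. With CD45-positive cells of 2 or more Krt18 UMIs and CD45-negative cells with any Ptprc UMI left out, the log2 fold change of Krt18 moved to -8.23, that of Sox9 to -7.70 and that of Col1a1 to -6.54, and 32.5% (male) and 30.0% (female) of the 243 genes then fell under 1%. The median remainder of the 243 genes was then 3.59% and 3.46%. Since these cells were chosen by Krt18 itself, its own value there is fixed by the choice. In the other direction, the 20 and 14 CD45-negative cells with a Ptprc UMI held 94.97% and 91.9% of the Tyrobp UMIs of their libraries, and 17 of the 20 and 11 of the 14 also had a Krt18 UMI. The values given below are those with all of these cells kept.

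**Figure D3:**
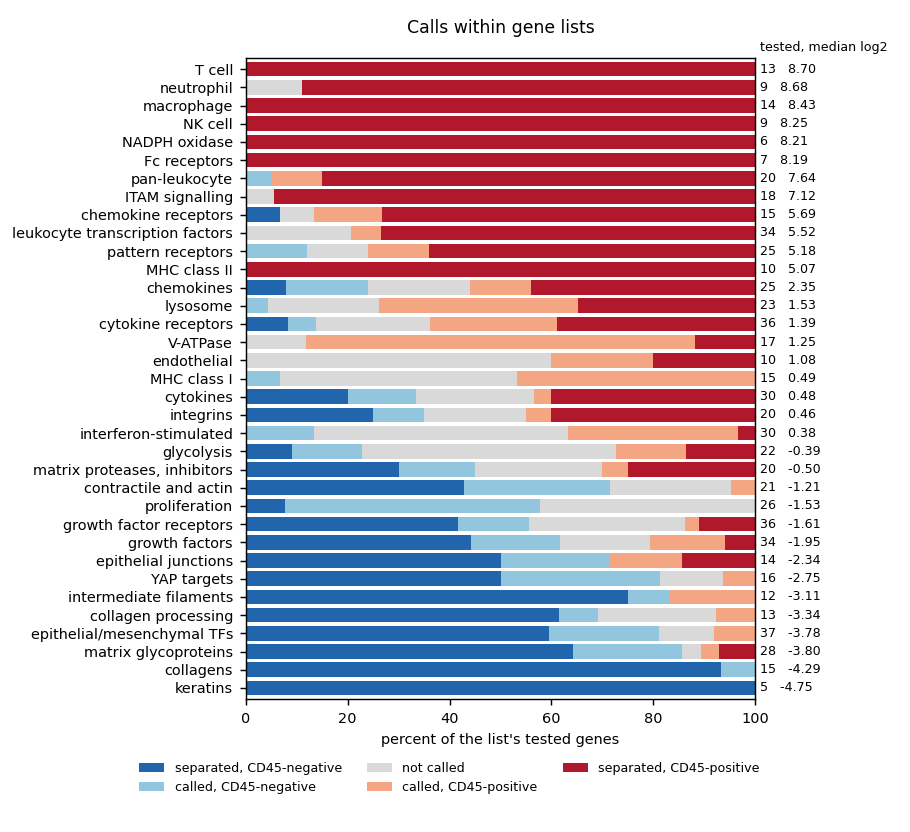
For lists of related genes, the percent of tested members that were separated in both hosts or called by the test alone on each side (bars from 0 to 100%); the figures at the right give the genes tested and the median log2 fold change, CD45-positive over CD45-negative. Leukocyte lineage and receptor lists are at the top, and collagens and keratins, with medians of -4.29 and -4.75, at the bottom.

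Macrophage genes were abundant on the CD45-positive side. All 14 listed macrophage markers were separated in both hosts, with a median log2 fold change of 8.43, against 10.6% of all genes separated on this side and an all-gene median of 0.01. Lyz2, encoding lysozyme, stood at 5965 and 4287 CPM in CD45-positive and 19.2 and 17.6 in CD45-negative libraries (log2 fold change 8.42 ± 0.30). C1qb, a second C1q chain, gave 3035 and 3465 against 10.1 and 12.03 CPM (8.50 ± 0.25), and Apoe, the apolipoprotein of lipid-laden macrophages, 3402 and 2459 against 11.2 and 12.96 (8.22 ± 0.30). In all 3 the CD45-positive libraries lay far above the CD45-negative ones in both hosts, with no overlap.

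T cell, NK cell and granulocyte markers were divided in the same way. The 13 T cell and 9 NK cell markers were all separated, with medians of 8.70 and 8.25, as were 8 of 9 neutrophil and 5 of 5 tested mast cell markers. Trac, the T cell receptor alpha constant gene, gave 168 and 97.3 against 4.61 and 4.49 CPM, and Nkg7, of cytotoxic granules, 134 and 109 against 0.487 and 0.0229. Mcpt4, a mast cell protease, stood at 167 and 33.03 CPM in the CD45-positive libraries. Of 8 B cell markers 5 were under the level needed for testing and 2 of the other 3 were separated, and the summed level of the 8 was 326 CPM in the CD45-positive library of the male host against 34.99 CPM in that of the female host. Of 11 tested dendritic cell markers 10 were higher in CD45-positive cells and 8 separated, with a median of 5.69. Cd209a, a marker of monocyte-derived dendritic cells, was at 89.4 and 53.5 against 0.0162 and 0.115 CPM.

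Among 451 separated CD45-positive genes of at least 50 CPM, the share of thinned cells with a UMI was a median of 0.896 of what an even spread over the gate's cells would give. It was under 0.25 of that for 4 genes only: the neutrophil calcium-binding genes S100a8 and S100a9 and the granzyme genes Gzma and Gzmc, the last of which was named after its value was seen. S100a9 was seen in 10.3% and 3.82% of thinned CD45-positive cells and Gzma in 4.86% and 6.86%. On the CD45-negative side the same ratio had a median of 0.945 over 402 genes, and none was under 0.25. For a gene with few UMIs per thinned cell, this ratio lies near 1 even if only part of the cells carry the gene. A value near 1 therefore does not show that a gene lies in most cells of its gate.

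The one neutrophil marker that did not follow was Mmp9, encoding gelatinase B. It stood at 144 and 281 CPM in CD45-positive and at 452 and 398 in CD45-negative libraries (log2 fold change -0.70 ± 0.34, adjusted p = 0.137). Of 20 pan-leukocyte genes, 19 were higher in the CD45-positive gate and 17 separated, and Spn, the sialomucin CD43 of lymphocytes, went the other way at 42.3 and 41.5 against 75.5 and 64.6 CPM (-0.44 ± 0.14, adjusted p = 0.0488). The call on Spn was lost without any one of the 4 libraries (adjusted p 0.0554 to 0.17), and with cells thinned to 1000 UMIs its value was 0.31 (adjusted p = 0.192). Il2rg, the common gamma chain of several interleukin receptors, was only moderately higher in leukocytes, with 364 and 368 against 142 and 192 CPM (1.43 ± 0.19). It was seen in 11.8% and 16.8% of thinned CD45-negative cells, 0.917 and 0.904 of the share an even spread would give. At this level the ratio cannot tell a spread over all cells from one over part of them.

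Genes of leukocyte activation were separated like the lineage markers. All 7 Fc receptor genes, all 6 tested NADPH oxidase genes and 17 of 18 genes of ITAM signalling, in which tyrosine motifs of adaptor chains recruit Syk-family kinases, were separated. Fcer1g, the shared Fc receptor gamma chain, gave 2673 and 3311 against 8.18 and 10.99 CPM (8.59 ± 0.31), and Tyrobp, the adaptor DAP12, 1376 and 1402 against 4.84 and 4.26 (8.55 ± 0.21). Cybb, the catalytic subunit of the phagocyte oxidase, stood at 760.3 and 817 against 1.49 and 2.43 CPM (8.96 ± 0.34). The kinase gene Lyn had the smaller contrast of 352 and 309 against 39.5 and 34.7 CPM (3.45 ± 0.16).

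Most pathogen sensors were higher in leukocytes. Of 25 tested pattern receptors 19 were higher in CD45-positive and 3 in CD45-negative cells, against 29.0% and 28.2% of all genes. Among the 19 was Clec7a, the beta-glucan receptor dectin-1, at 2347 and 3988 against 5.75 and 11.4 CPM (8.83 ± 0.59). The inflammasome sensor Nlrp3 stood at 721 and 722 against 4.12 and 8.47 CPM (7.14 ± 0.45). The 3 that were higher in CD45-negative cells encode cytosolic sensors: Nod1 (-1.04 ± 0.23), Ddx58, which is RIG-I (-0.92 ± 0.17), and the DNA sensor Aim2 (-0.43 ± 0.13). Aim2 did not pass with any 1 of the libraries left out (values -0.46 to -0.39), nor with thinned cells (-0.12, adjusted p = 0.575). Nod1 did not pass without the female host's CD45-positive (-0.83) or CD45-negative library (-0.84). Tmem173, encoding STING, did not pass at 118 and 140.2 against 135 and 128 CPM (adjusted p = 0.18).

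Lysosomal genes and the proton pump were higher in leukocytes by smaller factors. Of 23 lysosomal genes 17 were called on the CD45-positive side and 8 separated, with a median log2 fold change of 1.53. Ctss stood apart from its relatives at 3824 and 5517 against 19.5 and 24.8 CPM (8.02 ± 0.35), while Ctsb, cathepsin B, gave 3691 and 4537 against 804 and 892 (2.58 ± 0.20). Lipa, the lysosomal acid lipase, was higher in CD45-negative cells at 181 and 172 against 349.9 and 443 CPM (-0.87 ± 0.17), a call lost without the CD45-positive library of either host (adjusted p 0.0546 and 0.0665). Of 17 V-ATPase subunits 15 were higher in CD45-positive cells and 2 separated, with a median of 1.25. Lmnb1, the nuclear lamin B1, and Lmna, lamin A/C, divided in opposite directions, at 1.72 ± 0.16 and -2.34 ± 0.17.

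Antigen presentation separated by class. All 10 MHC class II genes were separated, with a median of 5.07. Cd74, the invariant chain, stood at 10165 and 8539.7 against 453 and 292 CPM (4.95 ± 0.32), and H2-Aa at 8693 and 8166 against 379 and 184 (5.20 ± 0.44). Only 4.14% and 6.53% of the CD45-negative Cd74 UMIs lay in the cells with a Ptprc UMI, against 92.9% and 93.8% of those of Laptm5, a lysosomal protein gene of haematopoietic cells. None of the 15 MHC class I genes was separated, 7 were higher and 1 lower in CD45-positive cells, and their median was 0.49 (0.19 with library totals). H2-K1 and H2-D1, the classical heavy chains, gave 2647 and 2798 against 2225 and 2896 CPM and 3341 and 3764 against 3458 and 3731 CPM, with ranges that overlapped between gates and adjusted p of 0.156 and 0.219. B2m, their light chain, was higher in CD45-positive cells at 4093 and 3994 against 2407 and 2551 CPM (1.004 ± 0.16). Tap2, a subunit of the peptide transporter, was lower at 79.3 and 74.3 against 121 and 132 CPM (-0.42 ± 0.13). That call was lost with any 1 of the libraries left out (values -0.48 to -0.34) and with thinned cells (-0.36, adjusted p = 0.112).

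Transcription factors divided in the same way. Of 34 tested leukocyte factors 27 were higher in CD45-positive cells and 25 separated, none was called on the other side, and the median was 5.52. Runx3, a T and NK cell factor, stood at 475 and 503 against 7.87 and 7.44 CPM (6.29 ± 0.17). Of 37 epithelial and mesenchymal factors 30 were higher in CD45-negative cells and 22 separated, with a median of -3.78. Sox9 gave 84.6 and 44.1 against 2015 and 1589.5 CPM (-4.51 ± 0.40), and Wwtr1, the YAP-related coactivator TAZ, 14.1 and 8.02 against 295 and 249.7 (-4.32 ± 0.33). Exceptions in that list were Zeb2 at 2.25 ± 0.23, Fosl2 at 1.10 ± 0.14 and Sox4 at 2.17 ± 0.69, all higher in leukocytes. Sox4 did not pass without the male host's CD45-negative library or without either CD45-positive library (values 1.44 to 2.38). Its call was also lost with library totals (adjusted p = 0.0674), with a stricter cell filter (0.0524) and without the deepest cells (0.0538). With thinned cells its value was 1.27 (adjusted p = 0.217).

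Keratins and most junction genes were higher in the CD45-negative gate. All 5 tested keratins were separated towards that gate. Krt8 gave 22.99 and 19.8 against 596 and 751 CPM (-4.68 ± 0.21), Krt19 7.57 and 7.22 against 279 and 236 (-4.82 ± 0.17), and the basal keratin Krt14 2.51 and 4.68 against 58.2 and 164 (-4.66 ± 0.66). Krt5 and Krt20, of basal and umbrella urothelial cells, and the uroplakins Upk1a, Upk1b, Upk2, Upk3a and Upk3b were under the level needed for testing. Of 14 tested junction genes 10 were higher in the CD45-negative gate, among them Jup, plakoglobin, at 49.4 and 34.9 against 336 and 329 CPM (-2.68 ± 0.21), and Tjp1, ZO-1, at 4.51 and 3.58 against 84.5 and 92.2 (-4.15 ± 0.19).

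The 2 genes by which epithelial cells are most often recognised went the other way. Cdh1, E-cadherin, stood at 52.7 and 167 CPM in the CD45-positive libraries and at only 2.71 and 6.25 in the CD45-negative ones (4.93 ± 0.77, adjusted p = 0.00507). It was seen in 4.88% and 13.7% of thinned CD45-positive cells and in 0.176% and 0.547% of thinned CD45-negative cells. Epcam, an epithelial adhesion protein, was low everywhere, at 4.49 and 2.73 against 0.13 and 0.0229 CPM (5.69 ± 0.67). Pkp3 and Cldn1, of desmosomes and tight junctions, were also higher in CD45-positive cells (2.37 ± 0.22 and 2.57 ± 0.29).

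Matrix genes made up the other large block of the CD45-negative side. All 15 tested collagens were higher there and 14 separated, with a median of -4.29, and of 28 matrix glycoproteins 24 were higher there and 18 separated (median -3.80). Col1a1 stood at 153 and 121 against 3502 and 3083 CPM (-4.29 ± 0.22), Col6a1 at 84.7 and 57.8 against 1938 and 1704 (-4.38 ± 0.27), and Sparc, a matricellular glycoprotein, at 124 and 116 against 3022 and 2752 (-4.29 ± 0.18). Of 13 genes that process collagen 9 were higher in the same cells, among them Serpinh1, the collagen chaperone HSP47, at 20.5 and 15.1 against 477 and 425 CPM (-4.36 ± 0.22).

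Col1a1 and Sparc were seen in most CD45-negative cells. In thinned CD45-negative cells, Col1a1 was seen in 88.5% and 84.2% and Sparc in 89.5% and 86.4%, while Krt18 was seen in 70.4% and 75.5%. The partner chain gene of type I collagen, Col1a2, behaved otherwise: at 7.57 and 28.1 against 81.96 and 289.6 CPM it was also higher in the CD45-negative gate (-3.08 ± 0.89, adjusted p = 0.0348), yet it was seen in only 1.25% and 3.72% of thinned cells, 0.121 and 0.131 of the share that an even spread would give. Its call was lost without the female host's CD45-negative (adjusted p = 0.121) or the male host's CD45-positive library (0.0912). Dcn, decorin, lay between, in 15.5% and 8.86% of cells (0.793 and 0.633 of an even spread), and Col3a1 in 27.1% and 17.7% (0.716 and 0.400).

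Vessel and mural markers were scarce in the gate that should hold them. Cdh5, VE-cadherin, was at 1.25 and 3.46 CPM in the CD45-negative and 1.98 and 2.51 in the CD45-positive libraries, which overlapped (adjusted p = 0.723). Pecam1, the adhesion molecule CD31 of endothelium and several leukocytes, was higher in CD45-positive cells at 74.5 and 262 against 3.80 and 9.51 CPM (4.97 ± 0.84). Acta2, smooth muscle actin, reached 8.59 and 18.2 CPM and Rgs5, of pericytes, 21.9 and 8.27 CPM among CD45-negative cells, and Tagln, Myh11 and Cspg4 were below the level needed for testing. The summed CPM of the 11 endothelial markers was 20.9 and 33.4 in the CD45-negative libraries, against 2568 and 3187 for the 10 keratins and 4208 and 4182 for the 12 fibroblast markers. In the CD45-negative gate the endothelial markers were thus low. Fibroblast markers were split: of 11 tested, 6 were higher in the CD45-negative and 2, Fap and Thy1, in the CD45-positive gate. Among all genes these shares were 28.2% and 29.0%. Thy1 stood at 167 and 161 CPM in CD45-positive against 12.6 and 19.3 CPM in CD45-negative libraries (3.66 ± 0.26). Most of the fibroblast sum was Col1a1, seen in most CD45-negative cells, so the sum does not measure stromal cells apart from carcinoma cells.

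Some matrix genes were higher in the CD45-positive gate, Thbs1 by less than the 4-fold of the separated class. Tgfbi, a secreted adhesion protein induced by TGF-beta, stood at 1089.7 and 2152 against 18.2 and 21.8 CPM (6.64 ± 0.45), and Thbs1, thrombospondin 1, at 2078 and 1912 against 839.5 and 1109.5 (1.33 ± 0.20). Fn1, fibronectin, did not pass at 239 and 1203 against 873 and 1319 CPM (adjusted p = 0.749), with the CD45-positive library of the male host well below that of the female host. Of 20 tested matrix proteases and inhibitors 6 were higher in CD45-positive and 9 in CD45-negative cells, against 29.0% and 28.2% of all genes. Macrophage elastase Mmp12 gave 833 and 2226 against 2.42 and 8.82 CPM (8.40 ± 1.00) and collagenase 3 gene Mmp13 908 and 2841 against 128 and 62.9 (4.59 ± 0.73), while the inhibitor gene Timp1 was at -3.56 ± 0.29.

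Integrin genes were divided between the gates. These receptors are alpha–beta dimers, and Itgb1 encodes the beta chain shared by most collagen, laminin and fibronectin receptors. Itgb1 stood at 495 and 509 CPM in CD45-positive and at only 11.8 and 21.3 CPM in CD45-negative libraries (5.22 ± 0.35, adjusted p = 4.49e-04). It was seen in 36.0% and 37.2% of thinned CD45-positive against 0.607% and 1.53% of thinned CD45-negative cells, and 9.09% and 5.28% of the CD45-negative UMIs lay in cells with a Ptprc UMI. Of the alpha chains that pair with it, Itga4, of the leukocyte receptor VLA-4, lay in the same gate at 214 and 131 against 0.649 and 0.0916 CPM (9.05 ± 0.79), and others in the CD45-negative gate: Itga3 at 19.00 and 12.6 against 332 and 321 CPM (-4.07 ± 0.25), Itga5 at 103 and 123 against 284 and 249 (-0.94 ± 0.16) and Itga2 at 2.53 and 3.16 against 19.3 and 39.4 (-3.07 ± 0.41). Itgb4, the hemidesmosomal beta chain, was at 3.52 and 3.29 against 95.97 and 104 CPM (-4.58 ± 0.15), and Itgb2, the leukocyte beta chain, at 602 and 804 against 12.4 and 10.7 (6.23 ± 0.25). Over the 20 integrin genes, 9 were higher in CD45-positive and 7 in CD45-negative cells, where 29.0% and 28.2% of all genes were.

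Some sister genes with the same task lay in opposite gates. Of 36 paralog pairs, in which the first is known from blood cells and the second, in most pairs, from a wider range of tissues (Lat is itself a T cell gene), 15 had the first higher in CD45-positive and the second higher in CD45-negative cells, 8 had both higher in CD45-positive cells, and in 13 one or neither member was called. The pairs were chosen for what is known of them, so the direction of the first member is no finding. Both members were also chosen with earlier results of these data known. Among all genes tested, 29.0% were higher in CD45-positive and 28.2% in CD45-negative cells.

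Actin regulators gave wide divisions. Lcp1, whose window is printed above, stood at 1886 and 2213 against 4.16 and 6.23 CPM (8.93 ± 0.34), and its sister Pls3 at 13.05 and 11.5 against 177 and 264 (-3.87 ± 0.26). Fermt3, the integrin-activating kindlin of blood cells, gave 100.1 and 95.7 against 0.146 and 0.275 CPM (9.19 ± 0.30), and Fermt2 7.74 and 5.83 against 172 and 185 (-4.42 ± 0.21). The cortactin relative Hcls1 was at 9.34 ± 0.33 and Cttn at -3.34 ± 0.23. The WAVE complex subunits Nckap1l and Nckap1 were at 5.54 ± 0.35 and -3.72 ± 0.15, and the actin polymerase genes Evl and Enah at 7.04 ± 0.40 and -2.94 ± 0.27.

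In other pairs a shared member was joined by a leukocyte one. Rac2, a small GTPase of blood cells, stood at 590.1 and 456 against 2.76 and 2.27 CPM (7.99 ± 0.26), while Rac1 was level at 382 and 369.6 against 389 and 349 CPM (adjusted p = 0.103). The actin-sequestering thymosin gene Tmsb4x gave 16492 and 12073 against 527 and 482 CPM (5.12 ± 0.27), and Tmsb10 875 and 653 against 904 and 711 (adjusted p = 0.436). Likewise Pik3cd, the leukocyte PI3-kinase subunit p110 delta, was at 6.63 ± 0.19 and Pik3ca at 0.21 ± 0.12 (adjusted p = 0.205). The D-type cyclins split, with Ccnd2 at 1.86 ± 0.34 and Ccnd1 at 102 and 70.1 against 661 and 520.1 CPM (-2.48 ± 0.25).

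**Figure D4:**
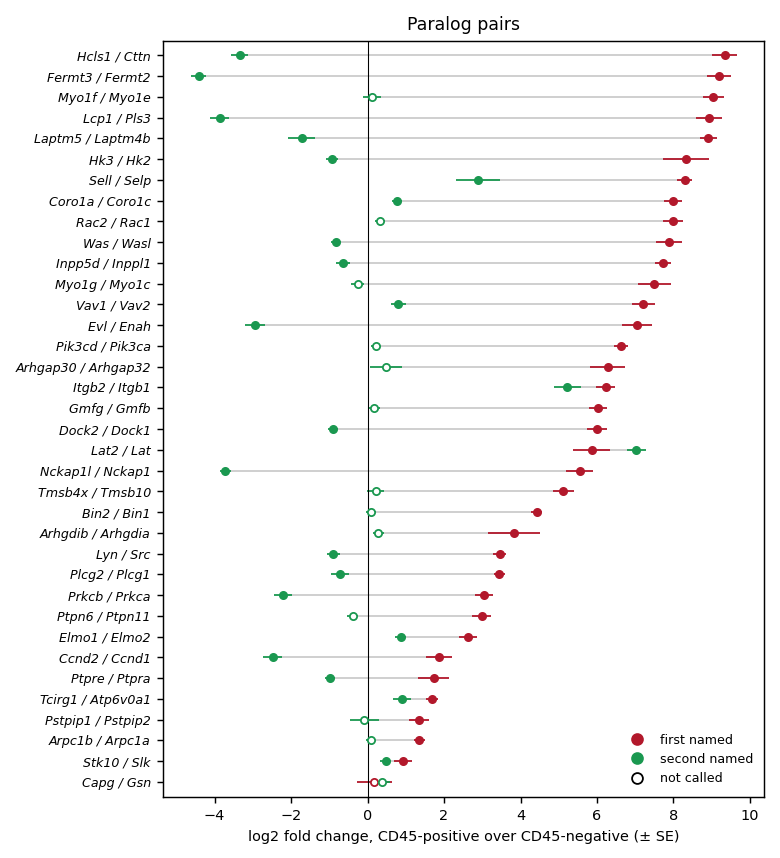
Log2 fold change, CD45-positive over CD45-negative, with its SE for both members of 36 paralog pairs, ordered by the first named; open points did not pass the test. The first members lie mostly between 1 and 9, and the second on either side of 0, from -4.42 for Fermt2 to 7.02 for Lat.

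Contractile and filament genes were a CD45-negative group. Of 21 tested genes of actomyosin 15 were higher there and 9 separated, and of 12 intermediate filament genes 10. Cald1 stood at 30.9 and 28.8 against 817 and 1015 CPM (-4.64 ± 0.20), Tpm1, a tropomyosin, at 100.3 and 86.2 against 892 and 828 (-2.91 ± 0.16), and Cnn3, calponin 3, at 131 and 109 against 1859 and 2481 (-3.88 ± 0.24). Zyx, a focal adhesion protein, was the exception at 335 and 292 against 235 and 208 CPM (0.80 ± 0.15), though not without the male host's CD45-positive library (adjusted p = 0.0602). Vim, vimentin, was abundant in both gates, at 2113 and 2785 against 6713 and 7784 CPM (-1.27 ± 0.22). Of 16 genes known as YAP targets 13 were higher in CD45-negative cells, with Amotl1, an angiomotin, at -4.55 ± 0.34, and Lats2, a kinase that restrains YAP, was higher in CD45-positive cells at 2.19 ± 0.17.

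Ligands and their receptors were on opposite sides about as often as on the same side. Of 59 ligand–receptor pairs, 3 had a member that was not tested. In 15 the ligand was higher in CD45-negative and the receptor in CD45-positive cells, in 5 the reverse held, in 12 both were higher in CD45-positive and in 6 both in CD45-negative cells. In 18 one or neither member was called. Of all genes tested, 29.0% were higher in CD45-positive and 28.2% in CD45-negative cells.

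The macrophage growth factors and some monocyte attractants were higher in CD45-negative cells, and their receptors in CD45-positive cells. Csf1r, the receptor for both of the factors, stood at 771 and 859.7 against 1.98 and 2.54 CPM (8.80 ± 0.25). Csf1 gave 81.97 and 98.1 against 302 and 414 CPM (-1.69 ± 0.21) and Il34 1.24 and 0.722 against 26.1 and 26.6 (-4.44 ± 0.31). The monocyte attractants Ccl2 and Ccl7 were at 235 and 175 against 1156 and 862 CPM (-2.001 ± 0.24) and 251 and 262 against 804 and 813 CPM (-1.36 ± 0.14), and their receptor Ccr2 at 242 and 292 against 0.585 and 0.183 (9.66 ± 0.53). The same direction held for Csf2 (-3.18 ± 0.32) with Csf2ra (8.85 ± 0.38), for Cx3cl1 (-3.84 ± 0.46) with Cx3cr1 (4.59 ± 0.70), for the stem cell factor Kitl (-4.32 ± 0.44) with Kit (7.75 ± 0.75), and for the NKG2D ligand Raet1e (-4.48 ± 0.19) with Klrk1 (9.54 ± 0.35). Other attractants lay in the CD45-positive gate: Ccl8 at 1407 and 2179 against 7.57 and 43.9 CPM (6.42 ± 1.01), and Ccl12, a further Ccr2 ligand named after its value was seen, at 336 and 436 against 3.12 and 4.33 CPM (6.999 ± 0.29). Of 25 tested chemokines 14 were higher in CD45-positive and 6 in CD45-negative cells, against 29.0% and 28.2% of all genes. Cxcl1, a neutrophil attractant, was only weakly on the CD45-negative side, at 204 and 86.96 against 737 and 487 CPM (-1.78 ± 0.46, adjusted p = 0.0255, and 0.0829 without the male host's CD45-negative library).

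The interleukin 1 and oncostatin pairs ran the other way. Il1b was at 3664 and 1940.1 CPM in CD45-positive and at 7.58 and 1.05 CPM in CD45-negative libraries (9.62 ± 1.23), and the signalling receptor Il1r1 at 9.43 and 10.97 against 138 and 139.8 (-3.47 ± 0.16). The decoy receptor Il1r2 was on the leukocyte side at 804 and 600.1 against 2.79 and 1.35 CPM (8.68 ± 0.49). Osm, oncostatin M, gave 355 and 343 against 7.10 and 11.1 CPM (5.57 ± 0.29), and Osmr 4.04 and 2.84 against 107 and 84.2 (-4.50 ± 0.26). Sema4d, a semaphorin, with its receptor Plxnb2 ran the same way with smaller contrasts (2.49 ± 0.24 and -1.40 ± 0.13).

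Both ends of the EGF receptor axis were higher in CD45-negative cells. Egfr stood at 3.47 and 2.41 against 60.6 and 74.7 CPM (-4.22 ± 0.25), and its ligands Ereg, Tgfa and Hbegf at -4.80 ± 0.34, -3.78 ± 0.26 and -2.24 ± 0.47. Met and its ligand Hgf were at -2.42 ± 0.30 and -0.86 ± 0.13. Spp1, osteopontin, often read as a macrophage gene in tumours, was higher in the CD45-negative gate at 123 and 387 against 1624 and 2842 CPM (-2.83 ± 0.64, adjusted p = 0.0162) and was seen in 60.0% and 79.4% of thinned CD45-negative cells. Without the female host's CD45-negative library its adjusted p was 0.0581. Cxcl16 and its receptor Cxcr6 were both higher in CD45-positive cells, at 4.31 ± 0.27 and 6.72 ± 0.20. The checkpoint ligand gene Cd274, PD-L1, was also higher there, at 239.9 and 213 against 15.9 and 36.8 CPM (3.40 ± 0.44), with its receptor Pdcd1 at 38.2 and 20.04 against 0.13 and 0 CPM (the 0 allows up to 0.0687 CPM).

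**Figure D5:**
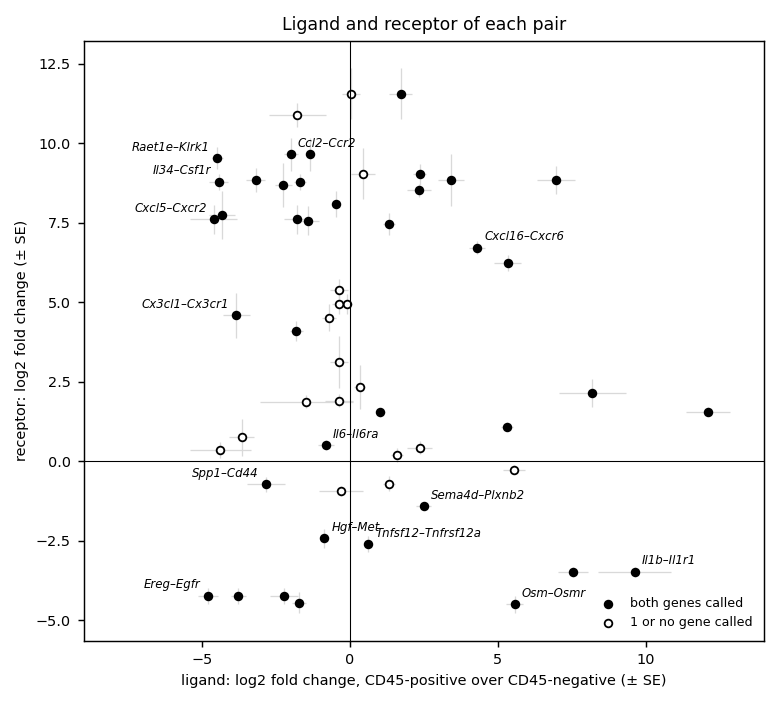
Log2 fold change, CD45-positive over CD45-negative, of the ligand (x axis) and the receptor (y axis) of each tested pair, with SE; filled points, both genes called; open points, 1 or none. The upper left holds the 15 pairs with the ligand in CD45-negative and the receptor in CD45-positive cells, and the lower right the 5 of the reverse kind.

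Of 18 tested complement genes 9 were higher in CD45-positive and 4 in CD45-negative cells, and of 16 coagulation genes 7 and 3, against 29.0% and 28.2% of all genes. The C1q chains were leukocyte genes (C1qa 8.47 ± 0.45), whereas C1s1, the protease of the same complex, stood at 8.90 and 7.41 against 219 and 208 CPM (-4.41 ± 0.17), C1ra at 40.5 and 46.2 against 232 and 206 (-2.04 ± 0.15) and C3 at 108 and 219 against 488 and 586 (-1.41 ± 0.37). In the fibrinolytic system the receptor gene Plaur was higher in CD45-positive cells (1.91 ± 0.20), the tissue activator Plat in CD45-negative cells (-3.64 ± 0.33), and Plau did not pass (adjusted p = 0.518). In eicosanoid synthesis, Alox5ap and Pla2g7 were at 6.96 ± 0.32 and 8.04 ± 0.42, and the prostaglandin E synthase Ptges at -4.57 ± 0.29. Ptgs2, cyclooxygenase 2, did not pass, at 501 and 234 against 667 and 901 CPM (adjusted p = 0.146).

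Proliferation genes leaned to CD45-negative cells. Of 26 proliferation genes 15 were higher there, none higher in CD45-positive cells and 2 separated, with a median of -1.53. Top2a, topoisomerase II alpha, gave 307 and 153 against 1062 and 890.1 CPM (-1.79 ± 0.36), and Mki67 199 and 88.4 against 329 and 263 (adjusted p = 0.173). Of 22 redox genes 4 were higher in CD45-positive and 9 in CD45-negative cells. Sod3, extracellular superoxide dismutase, stood at 62.2 and 67.5 against 1417 and 2402 CPM (-4.58 ± 0.33), and the mitochondrial Sod2 was higher in CD45-positive cells at 209 and 198 against 90.7 and 94.4 (1.43 ± 0.13). Of 22 glycolytic genes 6 were higher in CD45-positive and 5 in CD45-negative cells, shares near those of all genes (29.0% and 28.2%). The lactate transporter gene Slc16a1 stood out at 47.4 and 61.3 against 367 and 449 CPM (-2.61 ± 0.21). Arg1, arginase 1, was a CD45-positive gene at 471 and 2879 against 1.12 and 11.8 CPM (8.33 ± 1.70, adjusted p = 0.012), and its log2 fold change ran from 6.497 to 10.9 over the fits that left out 1 library. Nos2, the inducible nitric oxide synthase that uses the same substrate, gave 37.7 and 122 against 242 and 533 CPM and did not pass (-1.98 ± 0.68, adjusted p = 0.0569, but 0.0373 with library totals, 0.0187 with thinned cells and 0.00231 with DESeq2).

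Interferon-stimulated genes had no common direction. Of 30 interferon-stimulated genes 11 were higher in CD45-positive and 4 in CD45-negative cells, and 15 were not called. Among all genes tested, 29.0% and 28.2% were higher on these sides. Gbp2, an interferon-induced GTPase, gave 276 and 299 against 314 and 419.9 CPM (adjusted p = 0.82). The neighbouring family members Ifitm1 and Ifitm3 went in opposite directions, at 314 and 312 against 5.91 and 0.962 CPM (6.78 ± 0.93) and 641 and 814 against 2920.4 and 2206 CPM (-1.52 ± 0.23). Among the most abundant genes within 1.5-fold between gates in both hosts were H2-D1, H2-K1, the metallothionein Mt1, the ubiquitin gene Ubb, and the translation genes Eif5a, Eef1a1 and Pabpc1, with Ptma and the chaperone Hsp90b1.

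Within a gate, some of these genes differed several-fold between hosts. With 1 library for each host and gate, these differences have no replicate check. In CD45-negative cells, Mgp, matrix Gla protein, stood at 1934 and 424 CPM (male and female host), Il33, an alarmin, at 447 and 117, and Ptn, pleiotrophin, at 440.3 and 129, and each remained lower in the CD45-positive library of its own host (log2 fold change -4.54 ± 1.28, -4.37 ± 1.02 and -4.41 ± 1.10). Without the male host's CD45-negative library Mgp and Ptn did not pass (adjusted p 0.0937 and 0.0631), nor did Mgp without the female host's CD45-positive library (0.0609). Arg1 was the reverse, with 471 and 2879 CPM in CD45-positive cells of the male and female host. Fgb, fibrinogen beta, was found in the male host only, at 11.2 CPM in the CD45-positive and 243 CPM in the CD45-negative library, with no UMI in either female library (3 UMIs, the limit a count of 0 allows, are 0.0802 and 0.0687 CPM there).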

How the data were processed

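Single-cell RNA had been measured in 4 libraries of sorted MB49 tumour cells. What the authors deposited are raw UMI counts, one matrix of genes by cells for each library. CASAVA 1.8, UMI-tools, Seurat and the genome build mm10 are listed in the submitters' processing notes. Which aligner was run is not given in these sources. Cell barcodes are deposited as serial names, so barcodes shared between libraries could not be counted.

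Cells were kept at 500 or more UMIs, 250 or more genes and a mitochondrial share of 25% or less, and UMIs were summed per library. No doublet caller was run, and an alternative left out the 5% deepest cells. Genes with at least 1 CPM in at least 2 libraries were tested for gate with edgeR 4.0.16 (R 4.3.3; quasi-likelihood, TMM, gate as the only term, all 4 libraries), with Benjamini-Hochberg adjustment over all tested genes and a threshold of 0.05. SEs were derived from the test's F statistic. The spread holds the difference between hosts, and p-values measure only the spread between these libraries. The fit was first tested on simulated counts with known changes. Alternatives were library totals, DESeq2 1.42.0, host as a replicate block, other filters on genes and cells, a purer sort, thinned cells, and each library left out. Shares of cells carry counting error only.

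Named genes were Ptprc, Krt18, the 15 highest and 15 lowest separated genes with 100 CPM in both libraries of a gate, up to 6 most abundant genes of each list and any called against it, all pair members, genes on opposite sides in the hosts, and the 10 most abundant shared genes. Y-linked genes, Xist, Tsix and mitochondrially encoded, ribosomal protein, haemoglobin, immunoglobulin, T cell receptor and unnamed genes were left out of the ranked sets. For 5 listed genes the files use another symbol, matched through RefSeq synonyms, and Areg, Bcl11b and Igf2 were not analysed here. How reads shared by near-identical copies were counted is not given, so H2-D1, H2-K1, Eef1a1, Ptma and Mt1 are uncertain in level. The members, lists and pairs were chosen with earlier results of these data known. Values of some genes that the rule names are not reported here.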

Additional observations from a re-analysis of the deposited data

Results flagged for a closer look

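Of 2672 genes with at least 100 CPM in a library, 2 had gate ratios on opposite sides by at least 1.5-fold in each host. Cadm1, a cell adhesion molecule, had a log2 ratio of CD45-positive to CD45-negative CPM of 0.91 in the male and -1.59 in the female host. Its levels were 168 and 30.6 CPM in the CD45-positive and 89.4 and 92.3 CPM in the CD45-negative libraries of the male and female host, so the CD45-positive libraries carried the difference. Slc20a1, a phosphate transporter, had log2 ratios of 0.60 and -1.04, with 50.8 and 60.4 CPM in the CD45-positive and 33.6 and 124 CPM in the CD45-negative libraries. With 1 library per host and gate, the difference between hosts was not tested.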

How the results depend on the processing

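The counts of called genes stayed within 1.5 times the reported ones under every alternative run: 2835 to 5618 on the CD45-positive and 2810 to 5618 on the CD45-negative side. Genes separated in both hosts moved by more with the filter on low counts, which changes how many genes are tested: 2502 on the CD45-positive side with no filter, and 833 and 914 on the 2 sides with at least 10 CPM. With host as a replicate block, 4448 and 4430 genes were called, and the separated genes stayed at 1509 and 1649. The block also turned Nos2 (adjusted p = 4.14e-04), Mki67 (0.0235), Eef1a1 (0.0321) and Fgb (2.61e-04), not called without it, into calls. Libraries of the same host deviated together (r = 0.46 across 2672 genes), but no source says that they share animals. Leaving out a library gave 3161 to 3546 and 2913 to 3273 called genes, the lone library of a gate being assumed to vary like the other gate.

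Of the 148 named genes that were called, 42 had a log2 fold change that moved by over 1.5-fold when a library was left out, with no change of direction, and 12 lost the call in at least 1 such fit. The 6 widest ranges were those of Gzma (9.0001 to 16.01), Gzmc (5.84 to 12.3), Pdcd1 (8.09 to 13.3), Arg1 (6.497 to 10.9), Nkg7 (8.27 to 12.5) and Mgp (-6.67 to -3.08). Apart from Spn, log2 fold changes that changed sign were those of genes not called in the report, and the cause was not tested. With library totals, which shift the median gene by -0.30, they were Cdh5 (-0.0565), Eif5a (-0.21), H2-D1 (-0.0171), Mt1 (-0.0927), Pabpc1 (-0.0047), Pik3ca (-0.0885), Ptma (-0.24), Tmem173 (-0.0297) and Tmsb10 (-0.0803). Under the replicate block they were Cadm1 (-0.0324) and Slc20a1 (0.0727), and with thinned cells Cadm1 (-0.0457), Cdh5 (-0.63), Mt1 (-0.0695), Slc20a1 (0.14) and Spn (0.31). With 1 library left out, the values of Cadm1 ran from -1.27 to 1.18, of Cdh5 from -0.3235 to 1.17, of Fn1 from -1.90 to 0.435, of Gbp2 from -0.25 to 0.19, of Plau from -0.94 to 0.23, of Ptma from -0.13 to 0.21, of Slc20a1 from -0.86 to 1.05 and of Tmsb10 from -0.006 to 0.41. Those of Fgb, which had no UMI in the female host and whose fitted value depends on the prior count, ran from -15.4 to 10.9.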

Other observations

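Xist and Y-linked genes were left out of the named genes and looked at after their values were seen. They differed by gate, and by host most clearly in the CD45-positive gate. Xist, the RNA that coats the inactive X chromosome, had 0 UMIs in the CD45-positive library of the male host (an upper limit of 3 UMIs) and stood at 182 CPM in that of the female host, where 54.3% of cells had a UMI. In the CD45-negative libraries it was at 0.0325 CPM (male host) and 4.67 CPM (female host, 2.15% of cells with a UMI). The Y-linked helicase gene Ddx3y stood at 151 CPM in the CD45-positive and 11.2 CPM in the CD45-negative library of the male host. In the female host it was at 0.374 CPM in the CD45-positive and 16.03 CPM in the CD45-negative library. Eif2s3y, a Y-linked translation factor gene, had the same order, at 68.3 and 3.65 CPM (male host) and at 0.107 and 4.97 CPM (female host) in the CD45-positive and CD45-negative library. The CD45-negative levels of both Y-linked genes were thus within 1.5-fold between the hosts and were not tested. Kdm5d, also Y-linked, lay outside that range, at 0.714 (male host) and 1.74 CPM (female host) in the CD45-negative libraries. Uty stood at 0.909 and 1.24 CPM there. Each of these Y-linked genes was higher in the CD45-negative library of the female host than in that of the male host. In that gate they therefore did not follow the sex of the host, and their source was not tested.

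The immunoglobulin kappa constant gene Igkc was the only tested B cell marker not called. It stood at 179 CPM in the CD45-positive and 119 CPM in the CD45-negative library of the male host, and at 6.15 and 11.1 CPM in those of the female host. In thinned CD45-negative cells of the male host it was seen in 10.2%, which was 0.728 of the share of an even spread, while Ighm, the mu heavy chain, was at 131 CPM in the CD45-positive and 0.0649 CPM in the CD45-negative library of that host.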
